A study of Mus musculus with 12 samples.

Results

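The response of 4T1 cells to splenic Gr1+CD11b+ cells was described by comparing 4 libraries of primed cells with 4 libraries of parental cells, 8 of the 12 libraries sequenced. 4T1 is an established mammary carcinoma line of BALB/c mice. For priming, Gr1+ cells were taken from the spleens of BALB/c mice bearing 4T1 tumors, by magnetic column separation at day 21 after injection per the labels (the study's methods give a later day), and were held for 48 h across a Transwell membrane from 4T1 cells (group 4T1_MDSC_S, called spleen-primed). The parental group (4T1) consisted of untreated 4T1 cells, and no coculture partner was described for it. The remaining 4 libraries (4T1_MDSC_T, called tumor-primed) came from 4T1 cells cocultured in the same way with Gr1+ cells from tumors and are used only where a direct comparison is stated. All groups share the 4T1 background, and the RNA was that of lysed 4T1 wells. Neither the number of mice behind the Gr1+ cells nor whether the libraries came from separate cultures is given in the labels, so p-values measure the spread between these libraries, which may in part be technical.

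Gr1+CD11b+ cells are a mixed population of neutrophils, monocytic cells and their immature precursors that leave the bone marrow in large numbers in tumor-bearing mice and collect in the spleen. They secrete cytokines, proteases and reactive oxygen species, and they consume oxygen and nutrients. With a porous membrane between both cell types, soluble factors pass while cell contact is prevented, so that the RNA of the tumor cells can be read without sorting. Tumor cells are known to answer such conditions through pathways with well-studied target genes, among them the hypoxia response (HIF factors), the amino acid response (ATF4), the antioxidant response (NRF2), NF-κB, the IL-6 family with STAT3, and the interferons.

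Target genes of 2 of these pathways carried opposite changes below, and the 250 bases upstream of the start sites of 5 of them are shown so that the short motifs bound by HIF and ATF4 can be seen beside the values. The sequences are those of RefSeq on GRCm38.p6, written 5′ to 3′ in the direction of transcription. In the hypoxia-responsive genes Bnip3 (chr7:138909507-138909756, minus strand), Car9 (chr4:43506776-43507025, plus strand) and Pdk1 (chr2:71872974-71873223, plus strand), capitals mark ACGTG or GCGTG on either strand, the core letters of the HIF response element; overlapping matches are merged.
Bnip3: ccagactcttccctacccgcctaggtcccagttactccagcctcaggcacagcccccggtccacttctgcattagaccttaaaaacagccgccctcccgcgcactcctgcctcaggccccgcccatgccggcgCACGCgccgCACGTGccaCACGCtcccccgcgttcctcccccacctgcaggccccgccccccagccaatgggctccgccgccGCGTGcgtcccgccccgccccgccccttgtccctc
Car9: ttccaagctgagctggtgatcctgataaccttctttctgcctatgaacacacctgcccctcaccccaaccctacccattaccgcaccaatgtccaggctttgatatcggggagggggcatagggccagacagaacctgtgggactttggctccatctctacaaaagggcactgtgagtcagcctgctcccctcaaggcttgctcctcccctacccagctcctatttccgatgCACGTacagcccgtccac
Pdk1: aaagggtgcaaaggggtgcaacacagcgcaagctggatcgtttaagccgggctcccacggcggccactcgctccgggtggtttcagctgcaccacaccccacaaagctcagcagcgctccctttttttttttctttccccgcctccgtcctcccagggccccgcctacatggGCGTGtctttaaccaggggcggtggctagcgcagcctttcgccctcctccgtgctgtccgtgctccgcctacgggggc
In the amino acid response gene Asns (chr6:7693210-7693459, minus strand) and the tRNA synthetase gene Aars (chr8:111033592-111033841, plus strand), capitals mark TGATGNAAT or TGATGNAAC on either strand, the form of the C/EBP-ATF element.
Asns: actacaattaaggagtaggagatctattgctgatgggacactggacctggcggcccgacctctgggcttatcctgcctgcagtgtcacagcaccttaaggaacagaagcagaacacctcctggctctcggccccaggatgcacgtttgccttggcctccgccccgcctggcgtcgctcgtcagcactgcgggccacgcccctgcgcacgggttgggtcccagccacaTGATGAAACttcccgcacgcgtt
Aars: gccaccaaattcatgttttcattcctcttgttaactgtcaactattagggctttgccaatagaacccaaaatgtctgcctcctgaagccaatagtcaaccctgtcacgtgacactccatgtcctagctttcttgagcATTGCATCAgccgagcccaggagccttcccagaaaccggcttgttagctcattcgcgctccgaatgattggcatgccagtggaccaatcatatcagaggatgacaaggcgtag
Of the letters marked in each gene, Bnip3 held 5 matches, between 35 and 117 bases upstream of its start, and the other 4 genes held 1 each. Of the 25 tested genes on the hypoxia-responsive list, 17 had a window, and all 17 of those held ACGTG or GCGTG in at least 1 window, against 61.7% of the 9539 tested genes with windows. Counted by window, these letters were in 18 of 24 windows of the list, 55.8% of the windows of tested genes and 38.6% of all 32851 windows of this length. For ACGTG alone the numbers were 13 of 17 genes against 24.97% of tested genes. By window they were 14 of 24, against 21.4% of the windows of tested genes and 16.6% of all windows. ACGTG or GCGTG was also found in 18 of 28 matched genes of the ATF4 list and in 9 of 12 matched tRNA synthetase genes. The windows of Asns and Aars printed above hold such letters too, unmarked there. The C/EBP-ATF form was found in 5 of 28 matched genes of the ATF4 list and in 3 of 12 matched tRNA synthetase genes, against 1.05% of tested genes. By window it was found in 5 of 34 and 3 of 12, against 0.862% of the windows of tested genes and 1.52% of all windows. A match describes letters in a window and is not a measurement of binding.

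The libraries were checked for carried-over cells and for depth before genes were compared. Transcripts were assigned from 25630908 to 31637755 reads in each of the 8 libraries. Summed over 12 epithelial markers, the level was between 3423 and 3781 CPM (reads scaled to a common library total) in spleen-primed and between 3606 and 4696 CPM in parental cells. The 16 granulocyte markers summed to between 4.88 and 7.26 CPM in spleen-primed and between 4.70 and 6.18 CPM in parental cells. Of these markers 7, among them Mpo, Elane and Camp, had no read in any of the 8 libraries, 3 passed the expression filter, and 0 of the 3 were called by edgeR. The 14 markers of monocytes and macrophages summed to between 18.9 and 22.0 CPM in spleen-primed and between 16.5 and 19.7 CPM in parental cells. Of these 5, among them Adgre1, Ccr2 and C1qa, had no read in the 8 libraries, 3 were tested, and Mrc1 was called higher. The 5 platelet markers summed to between 0.770 and 1.98 CPM and between 0.313 and 1.07 CPM, and of 2 tested Itga2b was called higher. The part of these cell types in the results was not tested. Markers of B cells, T cells and erythroid cells summed to under 1 CPM in every library. On the principal component plane, spleen-primed replicate 3 and tumor-primed replicate 4 lay apart from their groups. The parental replicates were spread along the first component in the order 2, 1, 3 and 4, with replicate 4 farthest from the primed groups. Replicate 3 of the spleen-primed cells also had the lowest share of reads on genes with effective lengths of 5000 bases or more, 10.5% against between 11.5% and 14.0% in the other 7 libraries. Results that lead a paragraph below were therefore also computed without spleen-primed replicate 3 and parental replicate 4. Those values are given where a paragraph turns on them, and for some of the 7 list counts that moved by over 1.5 times or to or from 0.

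The levels of close to every second gene tested differed between spleen-primed and parental cells, mostly by small amounts. The median absolute log2 fold change was 0.48 among genes called higher and 0.32 among genes called lower. No coculture is described for the parental group, so effects of the splenic cells and of the coculture setting cannot be told apart. By edgeR (quasi-likelihood F test, Benjamini-Hochberg adjusted), 3225 of 12555 genes (25.7%) were higher and 2828 (22.5%) lower in spleen-primed than in parental cells at an adjusted p under 0.05. Large changes lay almost wholly on one side: 548 genes (4.36%) were higher by more than 1 on the log2 scale, and 28 (0.223%) were lower by as much. A gene could pass the expression filter through its level in 1 group alone. With at least 10 counts in every library 297 genes were higher and 19 lower by as much. Over protein-coding transcripts alone the numbers were 362 and 29. The median log2 fold change over all genes tested was 0.02. In 2677 genes (21.3%) the 4 spleen-primed libraries were all above the 4 parental ones, and in 2301 genes (18.3%) all were below. Without spleen-primed replicate 3 and parental replicate 4 the test called 3155 genes higher and 3128 lower.

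The direction of the calls depended on the level of the gene. In the decile of genes with the lowest mean CPM, 26.3% were higher and 1.27% lower in spleen-primed cells. In the decile with the highest mean CPM, 9.32% were higher and 53.6% lower, and the median log2 fold change there was -0.19. Genes called lower had a median level of 71.3 CPM, and genes called higher one of 18.1 CPM. Transcript length went with the calls as well: in the decile of genes with the shortest effective length 11.8% were higher and 36.6% lower, whereas in no other decile were more than 26.9% lower. The part of level and length in the changes of single lists was not tested.

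**Figure D1:**
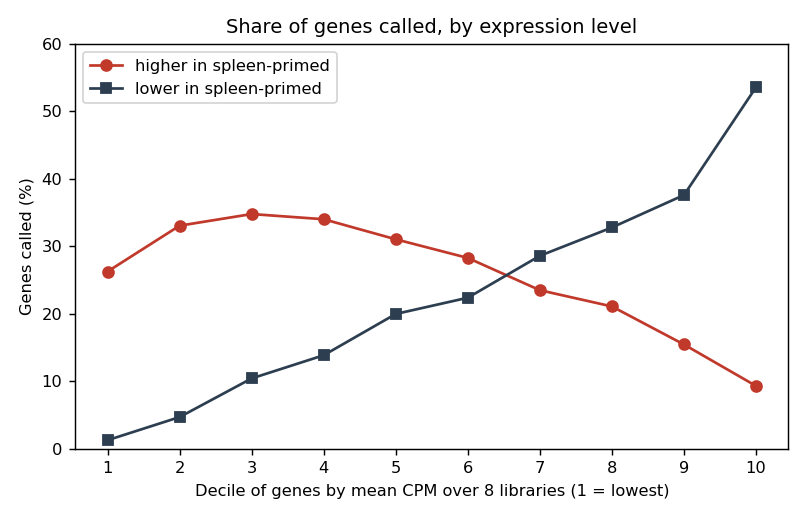
Share of genes called higher (circles) or lower (squares) in spleen-primed than in parental 4T1 cells, in percent of the genes of each decile by mean CPM over the 8 libraries. The share called lower rises from 1.27% in the lowest to 53.6% in the highest decile, while the share called higher falls to 9.32%.

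Several library-wide measures differed between the groups without overlap. Reads on transcripts annotated as retaining an intron were 3.34% ± 0.24 of each library (SD, n = 4) in spleen-primed and 2.12% ± 0.10 in parental cells. Reads on mitochondrially encoded genes were 2.78% ± 0.27 in spleen-primed and 5.03% ± 1.18 in parental cells, where replicate 4 reached 6.75% and replicate 1, the lowest, 4.26%. The 50 most abundant genes took 14.2% ± 0.49 and 18.1% ± 1.84 of the reads. Each of these differences had an exact two-sided permutation p of 0.0286, the smallest that 4 against 4 libraries allow. Because CPM is a share of a library, fewer reads on abundant genes and more reads on the others cannot be told apart in these data, and in bulk RNA the same holds for fewer cells of one state and less RNA per cell.

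Among protein-coding genes with at least 5 CPM in the higher group, the largest rise was in Rgs11 (ENSMUSG00000024186, chromosome 17, 26202951 to 26211324 of GRCm38), a regulator of G protein signaling. Its levels were 8.16, 14.1, 13.7 and 15.8 CPM in the 4 spleen-primed libraries and 0.438, 0.741, 0.377 and 0.320 CPM in the 4 parental ones. All spleen-primed libraries lay above all parental libraries, and the log2 fold change was 4.77 (SE 0.26, adjusted p = 6.07e-08, edgeR). Nearly all reads of Rgs11 fell on transcripts not annotated as protein-coding, 97.5% ± 3.29 in spleen-primed and 100% in each parental library, and over protein-coding transcripts alone the gene was not called (adjusted p = 0.08, edgeR). Rsrp1, which encodes an arginine- and serine-rich nuclear protein, had 91.6, 112, 120 and 105 CPM in spleen-primed and 10.0, 14.6, 6.54 and 7.07 CPM in parental cells. The rise was 3.48 (SE 0.19) on the log2 scale over all transcripts and 1.32 over protein-coding transcripts alone. Atg9b, which encodes a membrane protein of the autophagy machinery, rose by 3.01 (SE 0.21), from 2.96 ± 1.16 to 23.95 ± 4.93 CPM, and by 3.14 over coding transcripts.

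The other 7 of the 10 largest rises were BC005561, Psg17, Ccdc84, Ankrd16, Lime1, Dennd6b and Slc9a5, with log2 fold changes between 2.24 and 2.80. Psg17 belongs to a family of near-identical pregnancy-specific glycoprotein genes between which reads can be split, so its 9.67 ± 1.46 CPM in spleen-primed cells is uncertain. BC005561 had 2.18 CPM in spleen-primed replicate 3, against between 6.94 and 8.35 CPM in replicates 1, 2 and 4. Slc9a5, a sodium-proton exchanger, had 27.4, 37.0, 40.2 and 37.3 CPM in spleen-primed and 6.64, 10.1, 6.29 and 7.07 CPM in parental cells. Over protein-coding transcripts alone Ankrd16 was at 0.37 (adjusted p = 0.38, edgeR) and Dennd6b at 1.10 (adjusted p = 0.41), so neither was called there, whereas Slc9a5 stayed at 1.60.

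**Figure D2:**
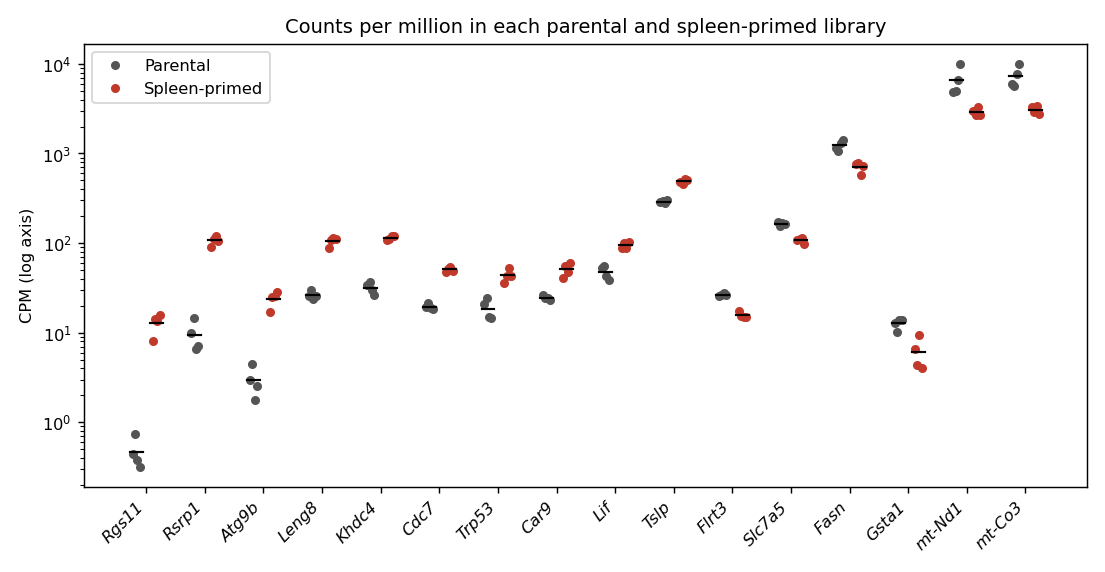
Levels (CPM, log axis) of 16 genes in each of the 4 parental (gray) and 4 spleen-primed (red) libraries; bars are group means. The libraries of the groups are separate for every gene shown, from Rgs11, with at most 0.741 CPM in parental cells, to mt-Co3, with at least 5618 CPM in them.

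The smallest p-values of the comparison belonged to genes with small spread. Leng8 (chromosome 7, 4137039 to 4148177), a member of the list of nuclear RNA retention genes below, stood at 88.6, 110, 114 and 110 CPM in spleen-primed and 25.6, 29.8, 23.9 and 25.7 CPM in parental cells, and its log2 fold change was 2.01 over all and 2.00 over coding transcripts. Cdc7 (chromosome 5, 106964322 to 106984432), the kinase that fires replication origins, had 48.0, 51.6, 54.6 and 49.1 CPM in spleen-primed and 19.3, 21.5, 18.7 and 18.2 CPM in parental cells, a log2 fold change of 1.39 (SE 0.06). Khdc4, an RNA-binding splicing protein, rose by 1.86 (SE 0.09), from 31.8 ± 4.71 to 115 ± 5.67 CPM. On the lower side the smallest p-values were those of Flrt3, Slc7a5 and Usp39. Flrt3 (chromosome 2, 140650914 to 140671469), a cell surface protein that binds latrophilins and FGF receptors, had 17.4, 15.3, 14.9 and 14.9 CPM in spleen-primed and 25.6, 26.2, 27.5 and 26.3 CPM in parental cells, and fell by 0.75 on the log2 scale (SE 0.07, adjusted p = 3.07e-06, edgeR). Usp39, a spliceosome component, fell by 0.52 (SE 0.05).

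Of the 17 tested genes on the list of CLK kinases and nuclear RNA retention, 16 were higher and 1 lower. The median log2 fold change was 1.08 against 0.02 over all genes. Many of these genes are known to hold part of their RNA in the nucleus with introns unspliced, and CLK kinases phosphorylate the SR proteins that control splicing. Pnisr, an SR-related gene, had 71.4, 78.0, 77.7 and 87.9 CPM in spleen-primed and 21.6, 30.7, 19.9 and 19.8 CPM in parental cells. Clk2 rose by 1.28 (SE 0.08), and Clk1, named here after its values were seen, by 1.08 (SE 0.09). Of 38 tested SR and hnRNP splicing factor genes 20 were higher and 3 lower, with a median of 0.18, and Luc7l3 and Srsf11 had the smallest p-values with rises of 0.88 and 0.93. The number lower on this list was 6 over protein-coding transcripts, and also 6 without spleen-primed replicate 3 and parental replicate 4. The coding RNA moved less than the whole: over protein-coding transcripts alone Clk1 was at 0.23, Clk2 at 0.36 and Srsf11 at 0.39, whereas Pnisr was at 1.71 and Luc7l3 at 0.91.

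The isoform make-up was examined in 12 genes, chosen for large changes or after values were seen, so that their shares are given as a description. In Clk1, 51.8%, 47.9%, 54.8% and 55.7% of the reads in the 4 spleen-primed libraries were on transcripts not annotated as protein-coding, which include those that retain an intron, against 10.7%, 17.5%, 10.3% and 7.59% in the 4 parental libraries. In Srsf5 this share was 38.6% ± 2.47 in spleen-primed and 7.67% ± 2.13 in parental cells, and in Srsf7 it was 29.6% ± 2.21 and 6.002% ± 2.27. Both are SR proteins that bind exonic enhancers and were named after their values were seen. Cdc7 had 30.2% ± 2.63 and 6.34% ± 4.39, and Trp53, which encodes p53, 24.2% ± 1.35 and 8.52% ± 3.39. In 9 of the 12 every spleen-primed library was above every parental one, and in Leng8, at 9.39% ± 1.97 and 5.79% ± 2.95, Atg9b and Rgs11 the libraries overlapped. Over 8487 tested genes with both kinds of transcript and at least 50 reads in each of the 8 libraries, the share was higher without overlap in 29.2% and lower without overlap in 1.12%, and the median difference was 0.775 percentage points. These shares are estimates from reads divided among overlapping transcripts. Parental replicate 2 had the highest share of the parental libraries in Clk1, Srsf5, Srsf7, Cdc7, Khdc4 and Trp53, below every spleen-primed library in each of them.

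**Figure D3:**
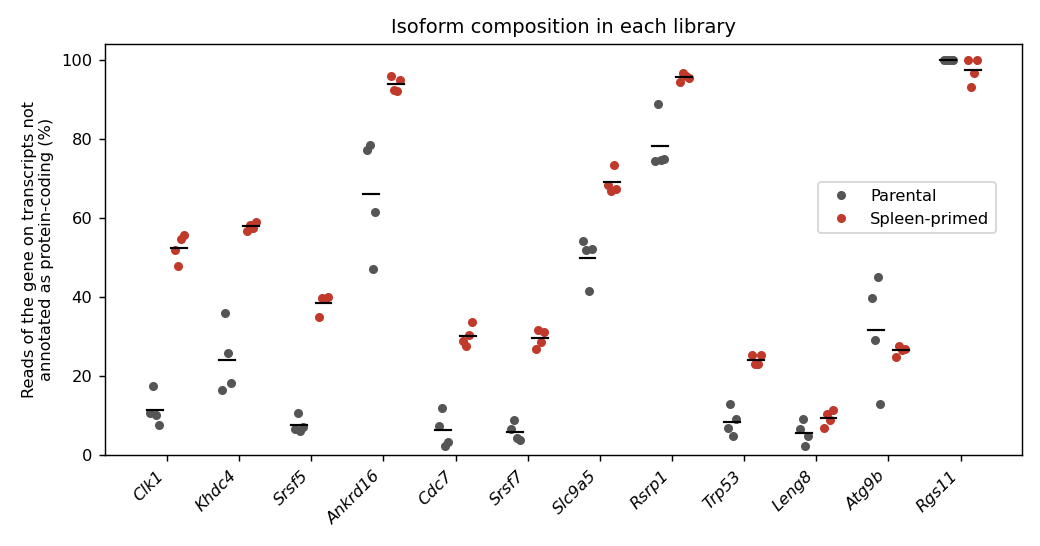
Percent of each gene's reads on transcripts not annotated as protein-coding, in each parental (gray) and spleen-primed (red) library, with group means as bars. Clk1 moves from between 7.59% and 17.5% to between 47.9% and 55.7%, whereas the libraries of Leng8, Atg9b and Rgs11 overlap.

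The factors that degrade faulty RNA did not move as a list. Of 14 tested nonsense-mediated decay factors 3 were higher and 3 lower, and their median was -0.04. Without spleen-primed replicate 3 and parental replicate 4 the numbers were 4 and 5. Zinc finger genes named Zfp, many of which encode DNA-binding repressors, leaned upwards, with 136 of 330 higher and 22 lower and a median of 0.21. Their median level was 12.3 CPM, which falls in the fourth decile by level, where 34.0% of all genes were higher and 13.9% lower.

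Genes of the hypoxia response rose together. Of 25 tested members of the list, 20 were higher and 0 lower, the median was 0.49, and between 19 and 21 were higher and 0 lower under every alternative tried. Bnip3 (chromosome 7, 138890836 to 138909519), which encodes a mitophagy receptor of the outer mitochondrial membrane, had 133, 158, 132 and 157 CPM in spleen-primed and 84.9, 84.2, 85.5 and 82.4 CPM in parental cells. No libraries overlapped, and its log2 fold change was 0.79 (SE 0.07, adjusted p = 1.13e-06, edgeR). Car9, the cell surface carbonic anhydrase that sets extracellular pH, had 41.2, 55.9, 47.8 and 60.3 CPM against 26.5, 24.2, 24.2 and 23.2 CPM, a log2 fold change of 1.06 (SE 0.12). In both genes the parental libraries were tightly grouped and the spleen-primed ones spread more widely.

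The rise covered enzymes and a secreted factor of this response. Pdk1, the kinase that closes the entry of pyruvate into mitochondria, rose by 0.66 (SE 0.08), from 61.1 ± 1.78 to 96.6 ± 12.1 CPM. Kdm3a, a histone demethylase, rose by 0.78, and Plod2, which hydroxylates collagen lysines, by 0.87. Vegfa, the main growth factor for blood vessels, had 66.2, 85.1, 76.7 and 92.5 CPM in spleen-primed and 56.8, 59.8, 52.7 and 57.1 CPM in parental cells, a log2 fold change of 0.50 (SE 0.08). Glycolysis, whose enzymes are partly under HIF control, did not follow as a list: 3 of 22 tested genes were higher and 6 lower, with a median of -0.07. Eno2, an enolase of otherwise neuronal expression, rose by 1.92 (SE 0.22), from 1.95 ± 0.12 to 7.40 ± 2.49 CPM, while Gapdh fell by 0.50 and Hk1 by 0.48.

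Cytokine genes of the tumor cells formed another rising group. Among 28 tested chemokines and cytokines 15 were higher and 2 lower, with a median of 0.40. Tslp, an epithelial cytokine that acts on dendritic and T cells, had 487, 452, 518 and 505 CPM in spleen-primed and 285, 295, 278 and 300 CPM in parental cells, a log2 fold change of 0.76 (SE 0.05, adjusted p = 3.51e-07, edgeR). Il23a, a subunit of IL-23, rose by 0.79 from 17.4 ± 1.78 to 30.0 ± 0.96 CPM. Cxcl1, a neutrophil attractant, rose by 0.63, Il1a by 0.43, and Spp1, which encodes osteopontin, by 0.47. The granulocyte growth factors were also higher: Csf3 (G-CSF) had 156, 162, 183 and 159 CPM in spleen-primed and 139, 137, 129 and 112 CPM in parental cells, a log2 fold change of 0.35 (SE 0.07), and Csf2 (GM-CSF) rose by 1.71 at a low level, from 0.543 ± 0.18 to 1.81 ± 0.38 CPM. The 2 members called lower were Tgfb1, at -0.61, and Mif, at -0.44.

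Within the IL-6 family and STAT3 list the members moved both ways. Of 23 tested genes 9 were higher and 7 lower, with a median of 0.09. Under DESeq2 with length offsets, in a fit of the 8 libraries alone, and without parental replicate 3, the number higher was 5. The ligand gene Lif was the most clearly changed, with 87.6, 102, 89.2 and 103 CPM in spleen-primed and 52.3, 56.0, 43.5 and 38.8 CPM in parental cells, a log2 fold change of 1.00 (SE 0.10). Il11, a further ligand, rose by 0.72. Of the receptor genes, Osmr, the oncostatin M receptor, was at 16.9 ± 2.34 and 12.2 ± 0.42 CPM (log2 fold change 0.47, adjusted p = 0.013, edgeR), and Il6ra rose by 0.58, whereas Il6st, the shared signaling subunit gp130, fell by 0.33 and Il4ra by 0.30. Stat3 itself rose by 0.31. With transcript length offsets the calls of Osmr, Il6st and Stat3 were lost. Cebpb, a transcription factor induced by this pathway in many tissues, fell by 0.48. The ligands Osm and Il6 had at most 4 counts in any of the 8 libraries and were not tested.

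On the list of NF-κB targets and feedback genes 11 of 25 tested members were higher and 7 lower, with a median of 0.17. Tnfaip3, which encodes the inhibitor A20, had 89.9, 97.9, 83.6 and 92.9 CPM in spleen-primed and 53.3, 61.2, 48.6 and 40.2 CPM in parental cells, a log2 fold change of 0.84 (SE 0.10). Birc2, a ubiquitin ligase that limits cell death, rose by 0.64, and Ikbke, a kinase of innate signaling, by 0.77. Immediate early and AP-1 genes had 11 of 26 members higher and 3 lower, with Mafg at 0.41 and Klf10 at 0.56. Jund, the AP-1 subunit, stood at 18.7 ± 4.02 against 35.0 ± 10.1 CPM and fell by 0.91 (SE 0.17). In the list of MAPK feedback genes 6 of 22 were higher and 4 lower; Hbegf, an EGF receptor ligand, rose by 0.34 and Spry2, an inhibitor of receptor tyrosine kinase signaling, fell by 0.45.

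Few interferon-stimulated genes were called against parental cells. Of 36 tested members 3 were higher and 1 lower, and their median was 0.17. Over all genes 25.7% were higher and 22.5% lower. The median level of the list was low, 2.40 CPM, in the second decile by level, where 33.1% of all genes were higher and 4.70% lower. The spread was estimated over all 12 libraries, and in the tumor-primed ones Irf9 ran from 27.8 to 62.2 CPM. The part of level and spread in the few calls was not tested. The 3 members called higher were Irf9 and Stat2, subunits of the interferon-activated complex ISGF3, and Ifi27. Irf9 had 6.50, 6.39, 7.23 and 8.31 CPM in spleen-primed and 3.91, 4.28, 4.53 and 3.64 CPM in parental cells, a log2 fold change of 0.80 (SE 0.23, adjusted p = 0.011, edgeR). Oasl1 was the member called lower, at -0.62 (adjusted p = 0.047). The number called higher was 7 in the fit of the 8 libraries alone and 5 under DESeq2 with length offsets, with limma-voom 0 members were called in either direction, and the calls of Ifi27 and Oasl1 were lost without any 1 of several libraries.

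The IFN-γ-inducible and antigen presentation list had 3 of 24 members higher (12.5%) and 1 lower (4.17%), against 25.7% and 22.5% of all genes. Its median level, 9.87 CPM, falls in the third decile by level, where 34.8% of all genes were higher and 10.4% lower. The values of 2 of the members called higher follow. Nlrc5, the activator of MHC class I genes, had 24.9, 29.1, 23.3 and 30.5 CPM in spleen-primed and 10.4, 13.4, 9.98 and 6.79 CPM in parental cells, a log2 fold change of 1.41 (SE 0.16, adjusted p = 1.55e-05, edgeR). Irf1, a transcription factor downstream of IFN-γ, rose by 0.56, from 26.9 ± 2.40 to 39.6 ± 1.85 CPM. Both genes were separate between the groups in all libraries.

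The largest falls were those of mitochondrially encoded genes, whose RNAs are made inside the organelle and encode core subunits of the respiratory chain. Of the 10 protein-coding genes with the largest falls, 7 were of this kind. mt-Atp8, an ATP synthase subunit (mitochondrial genome, 7766 to 7969), had 566, 408, 422 and 407 CPM in spleen-primed and 984, 1038, 1429 and 1804 CPM in parental cells, and fell by 1.54 on the log2 scale (SE 0.18, adjusted p = 1.75e-05, edgeR). mt-Co3, a cytochrome oxidase subunit, had 3305, 2881, 3377 and 2726 CPM in spleen-primed and 6007, 5618, 7706 and 9936 CPM in parental cells, a difference of -1.25 (SE 0.15). Among the spleen-primed libraries replicate 1 was the highest for mt-Atp8 and replicate 3 for mt-Co3, and parental replicates 3 and 4 were the highest of the 8 in both genes. mt-Nd1, mt-Nd5, mt-Atp6, mt-Nd4l and mt-Nd2 fell by between 1.07 and 1.17. The other 3 large falls were Galnt2, a glycosyltransferase, at -1.20, the epithelial cytolinker Eppk1 at -1.18 and the glutathione transferase Gsta1 at -1.06. In all, 11 of the 13 tested mitochondrially encoded genes were lower, with a median of -1.07, and without spleen-primed replicate 3 and parental replicate 4 the number was also 11. The member called higher was mt-Nd6, which is encoded on the other strand, at 0.77 (adjusted p = 0.048, edgeR), with overlapping libraries between 19.8 and 55.0 CPM and between 14.2 and 27.2 CPM, and its call was lost under several alternatives.

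Of 37 nuclear complex I subunits 0 were higher and 29 lower, with a median of -0.38, and of 39 subunits of complexes II to V 0 were higher and 35 lower, with a median of -0.35. By median level the complex I list falls in the sixth decile, where 22.4% of all genes were lower. The list of complexes II to V falls in the eighth, where 32.8% were lower. Atp5a1 had 722, 696, 751 and 673 CPM in spleen-primed and 941, 868, 1026 and 1042 CPM in parental cells, a difference of -0.45 (SE 0.06). Ndufa10 and Ndufa9 of complex I fell by 0.54 and 0.46, and Cox8a of complex IV by 0.59. The TCA cycle had 11 of 22 genes lower and 0 higher (17 lower without spleen-primed replicate 3), with citrate synthase (Cs) at -0.35. The median level of the TCA cycle list falls in the ninth decile by level, where 37.6% of all genes were lower. Mitochondrial ribosomal proteins had 47 of 78 lower and 0 higher, with Mrps15 at -0.53.

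Among the lists of ribosomal protein, ribosome biogenesis, proteasome and cytosolic heat shock genes, more than 1 in 2 tested members of each were lower in spleen-primed cells. By median level, the cytosolic ribosomal protein and heat shock lists fall in the highest decile, where 53.6% of all genes were lower. The ribosome biogenesis and proteasome lists fall in the ninth decile, where 37.6% of all genes were lower. Of 80 tested cytosolic ribosomal protein genes 74 were lower and 1 higher, with a median of -0.47. Rpl10 had 763, 698, 795 and 692 CPM in spleen-primed and 1005, 1088, 1224 and 1266 CPM in parental cells, and Rps6, the target of S6 kinase, fell by 0.56. Ribosome biogenesis and MYC target genes had 18 of 23 members lower and 3 higher, with Rrp12 at -0.76, Cad at -0.60 and Ncl (nucleolin) at -0.48. Myc itself was among the 3, at 107 ± 7.77 against 85.7 ± 8.52 CPM, a rise of 0.32. Proteasome subunits had 23 of 37 lower and 0 higher, led by Psmd1 at -0.52. Cytosolic heat shock genes had 12 of 19 lower and 0 higher: Hsp90aa1 fell by 0.42, Hspd1, the mitochondrial chaperonin, by 0.49, and Bag3 by 0.59. Among 26 tested chaperones and sensors of the endoplasmic reticulum 4 were higher, 8 lower and 14 not called, with a median of -0.10 and Calr at -0.26. The number lower on that list was 4 over protein-coding transcripts and 14 without spleen-primed replicate 3 and parental replicate 4.

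Of 32 tested genes on the ATF4 list 17 were lower and 9 higher, with a median of -0.26. Slc7a5 (chromosome 8, 121881150 to 121907694), the large neutral amino acid transporter, had 109, 112, 113 and 98.8 CPM in spleen-primed and 171, 157, 168 and 163 CPM in parental cells, a difference of -0.61 (SE 0.06). Asns, asparagine synthetase, fell by 0.57, the arginine transporter Slc7a1 by 0.65 and the factor Atf5 by 0.78. Of the 9 higher members, Nupr1, a stress-induced nuclear protein, rose by 0.75, and Atf4 itself by 0.37, from 122 ± 18.2 to 159 ± 11.2 CPM. The number higher was 5 under DESeq2 with length offsets, with no filter, in the 8 libraries alone, and without spleen-primed replicate 2 or parental replicate 3. Aminoacyl-tRNA synthetase genes, which charge tRNAs and many of which are ATF4 targets, had 17 of 20 lower and 0 higher, with a median of -0.36. By median level the synthetase list falls in the ninth decile, where 37.6% of all genes were lower. The ATF4 list falls in the sixth, where 22.4% were lower. Aars had 204, 201, 208 and 195 CPM in spleen-primed and 279, 258, 301 and 298 CPM in parental cells, and Yars fell by 0.49. Asns and Aars, whose upstream windows are printed above with C/EBP-ATF letters marked, were lower. Bnip3, Car9 and Pdk1, printed with HIF core letters marked, were higher. HIF core letters also lie unmarked in the windows of Asns and Aars, so these letters were present in genes of both directions.

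**Figure D4:**
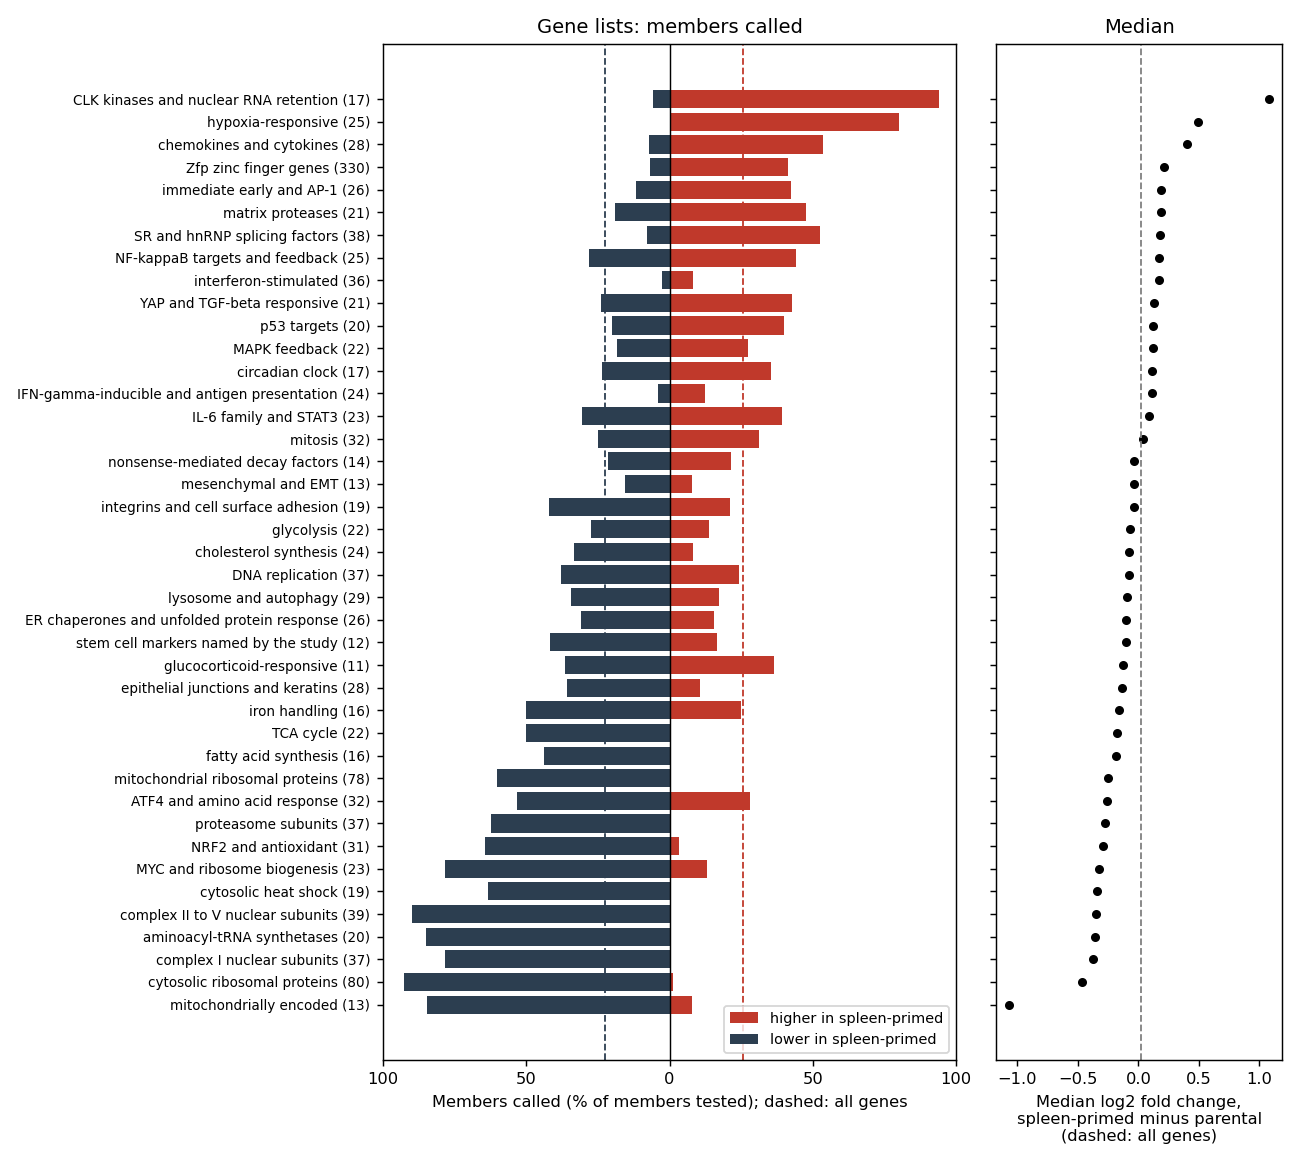
Left, percent of the tested members of each gene list (number tested in parentheses) called higher (red, to the right) or lower (dark, to the left) in spleen-primed than in parental cells; dashed lines give 25.7% and 22.5% for all genes. Right, median log2 fold change of each list, from -1.07 for mitochondrially encoded genes to 1.08 for CLK kinases and nuclear RNA retention, with a dashed line at the median of all genes.

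Of 31 tested NRF2 and antioxidant genes 20 were lower and 1 higher, with a median of -0.29. By median level this list falls in the ninth decile, where 37.6% of all genes were lower. Pgd, of the NADPH-generating pentose phosphate pathway, had 268, 261, 285 and 247 CPM in spleen-primed and 382, 344, 411 and 424 CPM in parental cells. The glutathione transferases Gstp1, Gsta4 and Gsta1 stood at -0.55, -0.78 and -1.06, and the ferritin gene Fth1 at -0.73. Fatty acid synthesis had 7 of 16 members lower and 0 higher. Fasn, the fatty acid synthase, had 763, 788, 575 and 726 CPM against 1149, 1072, 1298 and 1416 CPM, a difference of -0.79 over all transcripts and -0.40 with length offsets, and Acaca fell by 0.89. In both genes spleen-primed replicate 3 was the lowest library. Cholesterol synthesis had 8 of 24 lower and 2 higher, and Srebf2, the transcription factor that drives this pathway, fell by 0.38. The fatty acid and cholesterol lists have median levels in the eighth decile by level, where 32.8% of all genes were lower. On the iron handling list 8 of 16 were lower and 4 higher, and the ferrireductase gene Steap3 fell by 0.93. The median level of the iron handling list is in the ninth decile as well.

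Cell cycle genes showed no common direction. DNA replication had 9 of 37 members higher and 14 lower, with a median of -0.08, and mitosis had 10 of 32 higher and 8 lower, with a median of 0.04. Without parental replicate 3 the numbers lower were 9 and 5. Cdc7 led the former, Cdc45, a component of the replicative helicase, rose by 0.36, and Rrm1, a ribonucleotide reductase subunit, fell by 0.29. Cenpa, the centromeric histone, rose by 0.56 over all transcripts but stood at 0.02 over coding transcripts (adjusted p = 0.86, edgeR), whereas Aurkb kept 0.32 of 0.34. Mki67, the proliferation marker, had 1021, 921, 602 and 945 CPM in spleen-primed and 1158, 1160, 1271 and 1273 CPM in parental cells, a difference of -0.48 (SE 0.12), with spleen-primed replicate 3 far below the rest.

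Of the p53 targets 8 of 20 were higher and 4 lower. Trp53 had 35.9, 43.2, 52.9 and 42.7 CPM in spleen-primed and 20.7, 24.1, 15.2 and 14.4 CPM in parental cells, a log2 fold change of 1.23 (SE 0.15) over all and 1.01 over coding transcripts. Polk, a translesion polymerase, rose by 0.88, and Perp, which also serves desmosomes, fell by 0.46. Cdkn1a, the p21 inhibitor and a standard p53 target, was at 66.6 ± 4.18 and 62.2 ± 2.82 CPM (log2 fold change 0.10, adjusted p = 0.39, edgeR). The circadian list had 6 of 17 higher and 4 lower, with the clock repressor Per3 at 1.05 and Nr1d1 at -0.53. Glucocorticoid-responsive genes had 4 of 11 in each direction, and lysosome and autophagy genes 5 of 29 higher and 10 lower, with 3 higher when spleen-primed replicate 1 or 4 or parental replicate 3 was left out.

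Of 28 tested genes of epithelial junctions and keratins 10 were lower, 3 were higher and the other 15 were not called, with a median of -0.14. The paired keratins of simple epithelia, Krt8 and Krt18, fell by 0.48 and 0.38, and the desmosome gene Dsp was at -0.55, a call that was lost with length offsets. Epcam rose by 0.30, and E-cadherin (Cdh1) was at 70.2 ± 4.70 and 78.7 ± 5.02 CPM (adjusted p = 0.055, edgeR), and was called lower by DESeq2. Mesenchymal genes had 1 of 13 higher and 2 lower, with 2 higher when spleen-primed replicate 3 and parental replicate 4 were left out. Vim, the mesenchymal intermediate filament, had 1938, 1941, 2159 and 1852 CPM in spleen-primed and 2709, 2537, 3138 and 3545 CPM in parental cells, a difference of -0.60 (SE 0.09), and Foxc1 rose by 0.32. Snai1, Twist1 and Zeb1 had adjusted p-values of 0.15, 0.60 and 0.72 from edgeR, and Snai2 had at most 4 counts and was not tested.

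Surface and matrix genes split by member. Of 19 tested integrins and adhesion genes 4 were higher and 8 lower. Itgb3, a subunit of the vitronectin receptor, had 47.7, 49.98, 37.0 and 61.2 CPM in spleen-primed and 30.1, 30.1, 33.6 and 27.0 CPM in parental cells, a log2 fold change of 0.70, whereas Itgb7 fell by 0.73. The tetraspanin gene Cd9 rose by 0.46. Matrix proteases had 10 of 21 higher and 4 lower, with Mmp11 at 0.82, Mmp10 at 0.62 and Mmp12 at 1.44, the last at under 2 CPM in every library, and the lysosomal protease gene Ctsd at -0.35. YAP and TGF-β-responsive genes had 9 of 21 higher and 5 lower, and Ankrd1, a YAP target, rose by 0.99 (SE 0.08), from 37.9 ± 4.88 to 75.3 ± 4.55 CPM.

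Of the 15 stem cell markers that the study named for these cells, 12 were tested, and 2 of them were higher and 5 lower. Ly6a, which encodes SCA1, had 1.32, 1.31, 1.31 and 1.25 CPM in spleen-primed and 0.539, 0.659, 1.01 and 0.999 CPM in parental cells. Its libraries did not overlap, but the log2 fold change of 0.71 (SE 0.42) had an adjusted p of 0.19 in edgeR, and the gene was called in the fit of the 8 libraries alone. Has2, a hyaluronan synthase, rose by 0.34 beside Itgb3. Aldh3a1 had 98.4, 88.4, 105 and 88.5 CPM against 151, 131, 160 and 166 CPM, a difference of -0.68 (SE 0.08). Sox9 fell by 0.30, Podxl by 0.28, Klf4 by 0.26 and Cd24a by 0.21. Cd44, Itga6, Aldh1a1 and Abcg2 were not called, with adjusted p-values of 0.93, 0.97, 0.91 and 0.18 from edgeR. P2ry6, a nucleotide receptor, was at 2.63 ± 0.48 and 1.87 ± 0.33 CPM (adjusted p = 0.073, edgeR). Pou5f1 had at most 6 counts and Nanog at most 2 in any library, and Sox2 had 0 in all 8, where a count of 0 allows up to 3 counts.

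A direct test against tumor-primed cells asked which of these levels differ with the source of the Gr1+ cells. In it, 373 of 12555 genes (2.97%) were higher and 585 (4.66%) lower in spleen-primed than in tumor-primed cells. The number higher depended on single libraries, with 118 without tumor-primed replicate 3 and 531 without tumor-primed replicate 4. This comparison uses the same spleen-primed libraries as the one above, so its values are given side by side and not combined. Interferon-stimulated genes had 34 of 36 members lower than in tumor-primed cells, with a median of -2.54. The median level of this list over the spleen-primed and parental libraries was 2.40 CPM. A member could pass the expression filter through its level in tumor-primed cells alone, so the count is given as a description. Hypoxia-responsive genes had 14 of 25 lower and 0 higher, with a median of -0.29. Bnip3, for example, was at 145 ± 14.4 CPM in spleen-primed cells and at 195, 213, 209 and 200 CPM in tumor-primed cells (-0.49, SE 0.06), and Car9 and Vegfa were at -0.43 and -0.41 on the log2 scale. Osmr and Stat3 were at 73.1, 71.3, 83.8 and 50.6 CPM and at 168, 163, 174 and 128 CPM in tumor-primed cells, with log2 differences of -2.04 and -1.12 for spleen-primed against tumor-primed cells. Csf3 was at -0.54, Nlrc5 at -0.77 and Has2 at -0.81, while Lif (-0.27, adjusted p = 0.13, edgeR) did not pass. Ribosome biogenesis and MYC target genes had 12 of 23 members higher than in tumor-primed cells and 0 lower. Of the CLK and nuclear retention list 0 of 17, and of the splicing factor list 0 of 38, were called in either direction, with medians of 0.01 and 0.02.

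Some genes were called against both other groups in the same direction, with libraries that did not overlap in either comparison. Both differences rest on the same spleen-primed libraries and are not independent. The genes were picked by these values and are given as a description. The share of all genes tested that met this rule was not computed. The 6 with the largest smaller difference on the higher side were Slc4a11, Pdrg1, Sh2b3, Klhdc7a, Afap1l2 and Ccdc167. Sh2b3, an adaptor that dampens cytokine receptor signaling, had 76.7, 75.1, 74.1 and 75.8 CPM in spleen-primed, 56.5, 57.5, 53.4 and 52.9 CPM in parental and 57.2, 51.1, 51.8 and 62.3 CPM in tumor-primed cells. It was higher by 0.45 than in parental and by 0.44 than in tumor-primed cells (SE 0.06 each). Slc4a11, a membrane transporter, was at 31.3 ± 2.10 CPM and higher by 0.61 and 0.65. On the lower side stood Oasl1, Nhs, Ddx24, Ifitm3, Chac1 and B4galt5. Nhs had 8.79 CPM in spleen-primed replicate 3, against between 14.0 and 14.5 CPM in replicates 1, 2 and 4. Ddx24, an RNA helicase, had 153, 149, 155 and 147 CPM in spleen-primed, 224, 204, 251 and 261 CPM in parental and 246, 218, 206 and 177 CPM in tumor-primed cells, differences of -0.64 and -0.49. Ifitm3, an antiviral membrane protein induced by interferons, was at 203 ± 17.6 CPM in spleen-primed, 268 ± 19.6 in parental and 400.5 ± 97.8 in tumor-primed cells, and its call against parental cells (-0.40, adjusted p = 0.027, edgeR) was lost over coding transcripts. Chac1, which degrades glutathione, was at -0.39 and -0.62.

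**Figure D5:**
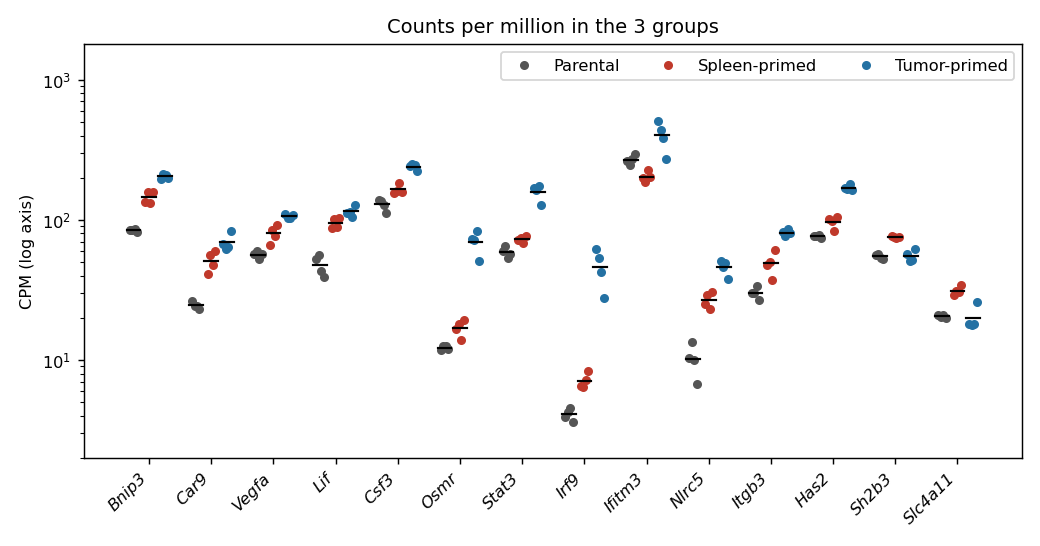
Levels (CPM, log axis) of 14 genes in the 4 libraries of parental (gray), spleen-primed (red) and tumor-primed (blue) cells, with group means as bars. Bnip3, Car9, Vegfa and Csf3 lie between the other groups in spleen-primed cells, Ifitm3 is lowest in them, and Sh2b3 and Slc4a11 are highest in them.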

How the data were processed

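RNA of 4 spleen-primed, 4 parental and 4 tumor-primed 4T1 libraries was analysed. For each library the authors deposited estimated counts per Ensembl transcript, not normalized, from Salmon 1.4.0 after Trimmomatic 0.39 per the submitters' processing notes; TPM values and effective lengths stand in the same deposited tables, and the authors' table of normalized counts was not used. Such estimates divide reads among transcripts, which makes near-identical genes and isoform shares uncertain. Of 117081 transcripts, 116021 matched GENCODE M21 (GRCm38), and the unmatched ones held at most 0.419% of the reads of a library. Counts were summed per gene and rounded, with 1 identifier kept per symbol in the lists.

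The 12 libraries entered 1 fit in edgeR 4.0.16 (filterByExpr, TMM, quasi-likelihood test, no replicate term) in R 4.3.3, with Benjamini-Hochberg adjustment and a threshold of 0.05. SE was taken as the absolute log2 difference over the square root of the F statistic. CPM values use TMM-scaled totals, except in the marker sums, which use plain library totals. Library measures were compared by exact two-sided permutation tests in scipy 1.17.1. Alternatives were DESeq2 1.42.0 with and without length offsets, limma-voom (limma 3.58.1), other scalings and filters, coding transcripts only, 8 libraries, a replicate block and single libraries left out. In simulated data for the spleen-primed against parental comparison, 196 of 12211 genes were changed by a factor of 2. There edgeR found 168 of the 196 and made 7 false calls. In the libraries themselves 3225 genes were called higher and 2828 lower. The number of false calls with as many genes changed, or with changes that depend on level, was not tested. No pair of libraries of a group matched within sampling noise. A count of 0 allows up to 3 counts, for counting error only.

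The members, gene lists and alternatives were chosen with earlier results of these data known. Genes were named as the 10 largest changes each way (protein-coding, non-overlapping, at least 5 CPM), the 3 smallest p-values each way, up to 5 members per list with the smallest p plus defining members, genes the study names, and up to 6 each way that differ from both other groups.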

Additional observations from a re-analysis of the deposited data

Results flagged for a closer look

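For 18 of 318 gene and group combinations, 1 of the 4 libraries lay far from the other 3 by Dixon's criterion, which chance gives in about 1 of 20 groups. In spleen-primed replicate 1, these were mt-Atp8 at 566 CPM (others 407 to 422), Flrt3 at 17.4 CPM (others 14.9 to 15.3), Psmd1 at 338 CPM (others 306 to 311), Hsp90aa1 at 2326 CPM (others 2082 to 2093) and Clk2 at 40.5 CPM (others 49.7 to 50.8). In spleen-primed replicate 2, this was mt-Nd4l at 213 CPM (others 249.9 to 250.2). In spleen-primed replicate 3, these were Atf5 at 23.5 CPM (others 19.2 to 19.5), Nhs at 8.79 CPM (others 14.0 to 14.5) and Mif at 415 CPM (others 315 to 328). In spleen-primed replicate 4, these were Rrp12 at 34.6 CPM (others 41.6 to 43.0), Ly6a at 1.25 CPM (others 1.31 to 1.32), Aldh1a1 at 0.244 CPM (others 0.502 to 0.545) and Hbegf at 94.5 CPM (others 97.9 to 98.0). In parental replicate 2, these were Usp39 at 73.3 CPM (others 78.0 to 78.9), Luc7l3 at 63.6 CPM (others 56.8 to 57.6), Clk2 at 22.7 CPM (others 18.6 to 18.8), Pnisr at 30.7 CPM (others 19.8 to 21.6) and Klf4 at 25.7 CPM (others 23.7 to 23.9). The causes of these gaps were not tested.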

How the results depend on the processing

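Against parental cells, the counts of genes higher and lower stayed within 1.5 times the reported values under every alternative tried, including the 2 libraries left out together, which was chosen after seeing the data; leaving out each library gave between 2759 and 3382 higher and between 2380 and 3269 lower. Genes higher by more than 1 on the log2 scale numbered 297 with at least 10 counts in every library and 362 over protein-coding transcripts (between 512 and 674 with single libraries left out), both settings that test fewer transcripts or genes, and genes lower by as much numbered 49 with no filter (between 26 and 40 with single libraries left out). Against tumor-primed cells, 96 genes were higher and 349 lower at an adjusted p under 0.01. Single libraries left out gave between 118 and 531 higher and between 402 and 662 lower. The lowest counts of higher genes came without tumor-primed replicates 3 (118), 2 (137) and 1 (162) and without spleen-primed replicates 2 (209) and 1 (241), and the cause was not tested. The replicate block, for numbers that do not pair these samples (correlations of same-numbered spleen-primed and parental libraries between -0.16 and 0.07), gave 3078 higher and 2701 lower, and 256 and 488 against tumor-primed cells. Of 148 named genes called, 132 were called in every fit and 0 changed sign. Calls of Oasl1, Ifi27, Ifitm3 and mt-Nd6 were the least stable. Counts limit what can be said of genes under about 1 CPM, such as Ly6a in parental cells.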

Other observations

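Pseudogenes and non-coding genes passed the filter in small numbers. Of 461 tested pseudogenes 128 (27.8%) were higher and 69 (15.0%) lower in spleen-primed than in parental cells, and of 21 other non-coding genes 11 were higher and 4 lower, beside 25.6% and 22.8% of 12073 protein-coding genes. Pseudogene counts are uncertain where reads of the parent gene can be assigned to them. More genes had a read in each spleen-primed library, between 15025 and 15133, than in any parental library, between 14249 and 14585 (exact permutation p = 0.0286).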
